A study of Homo sapiens with 8 samples.

Results

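The nuclear genes for the subunits of the mitochondrial respiratory chain were examined in LX-2 cells, an immortalised human hepatic stellate cell (HSC) line, after inhibition of O-GlcNAc transferase (OGT). Members were the genes whose symbols begin with NDUFA, NDUFB, NDUFC, NDUFS, NDUFV, UQCR, ATP5 or COX4 to COX8, together with SDHA to SDHD, CYC1 and CYCS, with a total of at least 10 counts over all libraries. Of 16796 genes in the count files, 98 matched, 0 of these were pseudogenes and 94 reached the minimum. The 94 comprised 84 subunit genes (37 of complex I, 4 of complex II, 9 of complex III, the gene of cytochrome c, 15 of complex IV and 18 of complex V), 8 complex I assembly factors that share the NDUFA prefix, and 2 read-through transcripts. ATP5MGL, COX7B2, COX8C and UQCRHL had totals of 1 to 5 counts and were left out, and the subunits encoded by mitochondrial DNA, COX4I2 and COX6A2 were not analysed here.

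The study set LX-2 cells given the vehicle DMSO (control) against LX-2 cells given 50 µM OSMI-1, a small molecule that blocks OGT (OGTi), both for 24 h in medium with 5% fetal bovine serum. OGT attaches a single sugar, O-GlcNAc, to serines and threonines of nuclear, cytosolic and mitochondrial proteins, and the comparison asks how the mRNAs of myofibroblastic HSCs depend on it. Each group had 4 libraries of polyadenylated RNA from biological replicates, and treated and control libraries of the same replicate number were paired. All libraries came from a single cell line, so the replicates measure the spread between cultures and not between donors.

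The respiratory chain moves electrons from NADH and succinate to oxygen. Complex I oxidises NADH and complex II oxidises succinate, both pass electrons through ubiquinone to complex III, cytochrome c carries them to complex IV, and complexes I, III and IV pump protons across the inner mitochondrial membrane. Complex V, the ATP synthase, lets the protons return through its membrane rotor, the c-ring, and makes ATP in its F1 head. Most subunits are nuclear-encoded and join mitochondrially encoded partners with the help of assembly factors that are not part of the finished enzyme.

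The libraries held 24166756 to 28201215 counts. Of 11 stellate cell and myofibroblast markers all were measured, with summed normalized counts of 228520 to 267505 in control and 163886 to 187259 in OGTi libraries. Among these markers DES and LRAT were near 0. Markers of other liver cells were tested for 1 of 5 hepatocyte, 3 of 4 macrophage, 2 of 4 endothelial and 1 of 3 cholangiocyte genes, and the defining markers ALB, EPCAM, LYVE1 and MARCO had no tested value while PTPRC stayed at or under 11.5. The summed macrophage list went from 2477 to 4080 in control to 5605 to 9390 in OGTi, nearly all of it CD68 (means 3236 and 7687, q = 1.61e-51, DESeq2), and the hepatocyte list, which was CYP2E1 alone, from 27.3 to 62.9 to 156 to 271. The endothelial sum was 26.3 to 49.8 and 5.01 to 11, and the cholangiocyte sum 67.6 to 141 and 32.1 to 77.1. The part of these shifts in the results below was not tested. A normalized count is a count divided by the library's size factor, and q is the Benjamini-Hochberg adjusted p of DESeq2's Wald test over all genes. Genes were called at q of 0.05 or lower.

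Under OGTi 26 subunit genes fell and 7 rose among the 83 with an adjusted p, which is 31.3% lower and 8.43% higher. Over all 14028 genes with an adjusted p, 46.6% were called, 24% lower and 22.7% higher. The median log2 fold change of the 84 subunit genes was -0.13, against 0.00 for all genes tested, and the medians within the replicate pairs 1 to 4 were -0.22, -0.03, -0.03 and -0.13. The changes were small: 0 subunit genes were called with a change of 2-fold or more, against 8.55% of all genes with an adjusted p. In bulk RNA, fewer cells of a type and less of an mRNA per cell cannot be told apart.

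In complex V 9 of 18 genes fell and 0 rose, with a median log2 fold change of -0.24. Without replicate 1 or without replicate 4, 6 fell, where 21.1% and 19.7% of all genes were lower. With trends on GC content and transcript length removed 14 fell, where 23.4% of all genes were lower. In complex I 13 of 37 fell and 4 rose, with a median of -0.13. In complex IV 1 of 14 genes with an adjusted p fell and 2 rose (median -0.00), in complex III 1 of 9 fell and 1 rose (median 0.02), and in complex II 2 of 4 fell and 0 rose (median -0.12), with 0 falls in complex II whichever pair was left out. The groups of 4 libraries did not overlap for 23 subunit genes lower and 5 higher in OGTi, where 20.2% and 19.8% of all genes were apart in these directions. The calls depended on the replicates: leaving out 1 pair left 15 to 25 subunit genes lower and 2 to 9 higher, and leaving out replicate 1 gave 15 lower and 9 higher (21.1% and 19.4% of all genes), and leaving out replicate 2 gave 22 lower and 2 higher (19.7% and 17.6% of all genes).

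**Figure D1:**
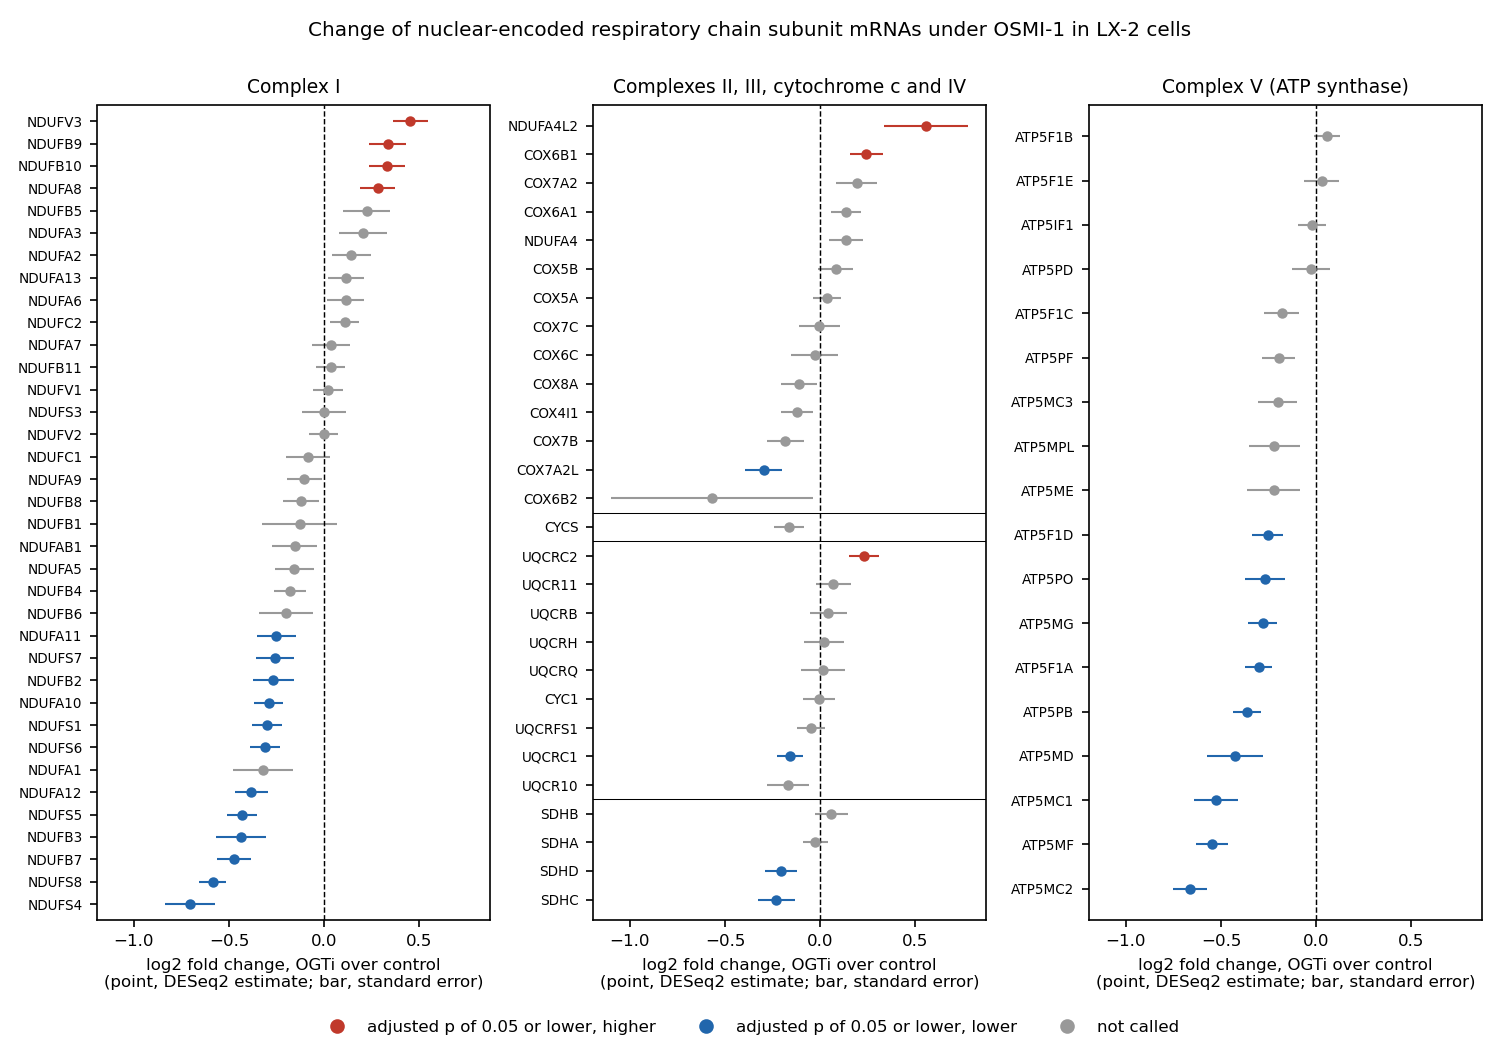
The log2 fold change of OGTi over control (x axis) for the subunit genes reported, grouped by complex, with points as DESeq2 estimates from 4 replicate pairs, bars as standard errors and colours as calls at q of 0.05 or lower. Complex V holds 9 blue points and 0 red points, whereas complex IV holds 1 blue and 2 red points on either side of 0.

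In complex I the largest falls were those of NDUFS4, NDUFS8 and NDUFB7. NDUFS8, a core subunit of the matrix arm that carries iron-sulfur clusters on the path to ubiquinone (chr11:68030617-68036644, GRCh38), had 5933, 5856, 5069 and 5419 normalized counts in control replicates 1 to 4. In the OGTi libraries it had 3989.9, 4086, 3448 and 3334, all of them below all control libraries. Its log2 fold change was -0.59 ± 0.07 (SE, n = 4 pairs; q = 6.42e-16, DESeq2), and it was the complex I subunit mRNA of the highest level per kb of transcript.

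NDUFS4, an accessory subunit of the NADH-oxidising end whose loss is a known cause of Leigh syndrome (chr5:53560633-53683338), had 512, 458, 421 and 462 normalized counts in control and 287, 285, 284 and 276 in OGTi. The OGTi libraries were close to each other and far below the control libraries (log2 fold change -0.71 ± 0.13, q = 4.99e-07, DESeq2). NDUFB7, an accessory subunit on the intermembrane space side of the membrane arm (chr19:14566078-14572066), had 2162, 1960.5, 1731 and 1812 in control and 1475, 1629, 1291 and 1150.0 in OGTi. These groups did not overlap either (-0.47 ± 0.09, q = 1.01e-06, DESeq2). The NDUFB7 counts were fractional in 5 libraries, and the part of reads that RSEM divided with other genes was not tested.

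Other core subunits of the matrix arm, the part that holds the flavin and the iron-sulfur clusters, also fell, among them NDUFS1 (-0.30 ± 0.08, q = 0.000662) and NDUFS7 (-0.26 ± 0.10, q = 0.0216). The NDUFS7 groups overlapped, at 1176 to 1409 in control and 979 to 1202 in OGTi, and its call was not kept in every setting tried. NDUFS1, the largest of the core iron-sulfur subunits, had 2030.2, 1945, 2088 and 1951 normalized counts in control and 1744, 1616, 1586 and 1565 in OGTi, without overlap. NDUFV1, the subunit that binds NADH and flavin, had means of 3975 ± 257 (SD) in control and 4034 ± 243 in OGTi and a log2 fold change of 0.02 ± 0.08 (q = 0.855, DESeq2). The core subunits NDUFS3 (-0.0006 ± 0.11, q = 0.998) and NDUFV2 (-0.002 ± 0.08, q = 0.988) were not called either.

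Of the 9 accessory subunits of the matrix arm 3 fell (NDUFS4, NDUFS6 and NDUFA12) and 1 rose. Of the 20 accessory subunits of the membrane arm 6 fell and 3 rose: NDUFS5 (-0.43), NDUFB3 (-0.44), NDUFB7, NDUFA10 (-0.29), NDUFB2 (-0.27) and NDUFA11 (-0.25) against NDUFB9, NDUFB10 and NDUFA8. The calls of NDUFB3, NDUFB2, NDUFA11 and NDUFA8 were not kept in every setting tried. The groups of libraries overlapped for NDUFB2, NDUFA11 and NDUFA8. The acyl carrier protein NDUFAB1, which sits in both arms, had a log2 fold change of -0.15 ± 0.12 (q = 0.29). NDUFA1 (-0.32 ± 0.16) had OGTi libraries below all control libraries, at 214 to 265 against 267 to 347 normalized counts, but missed the threshold (q = 0.0862, DESeq2).

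NDUFV3, an accessory subunit beside the NADH-binding site (chr21:42879644-42913304), moved the other way. It had 1679, 1492, 1243 and 1445 normalized counts in control and 2248, 1979, 2028 and 1755 in OGTi. All OGTi libraries stood above the control libraries (0.45 ± 0.09, q = 3.45e-06, DESeq2), and it was the sole riser among the subunit genes that kept its call in every setting tried. NDUFB10 rose from 1276 to 1374 in control to 1462 to 2026 in OGTi (0.33 ± 0.09, q = 0.00143), and NDUFB9 from 812 to 987 to 1087 to 1225 (0.33 ± 0.10, q = 0.00199). Both lost their call without 1 pair: NDUFB10 had q = 0.0635 without replicate 2 and NDUFB9 had q = 0.051 without replicate 4.

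**Figure D2:**
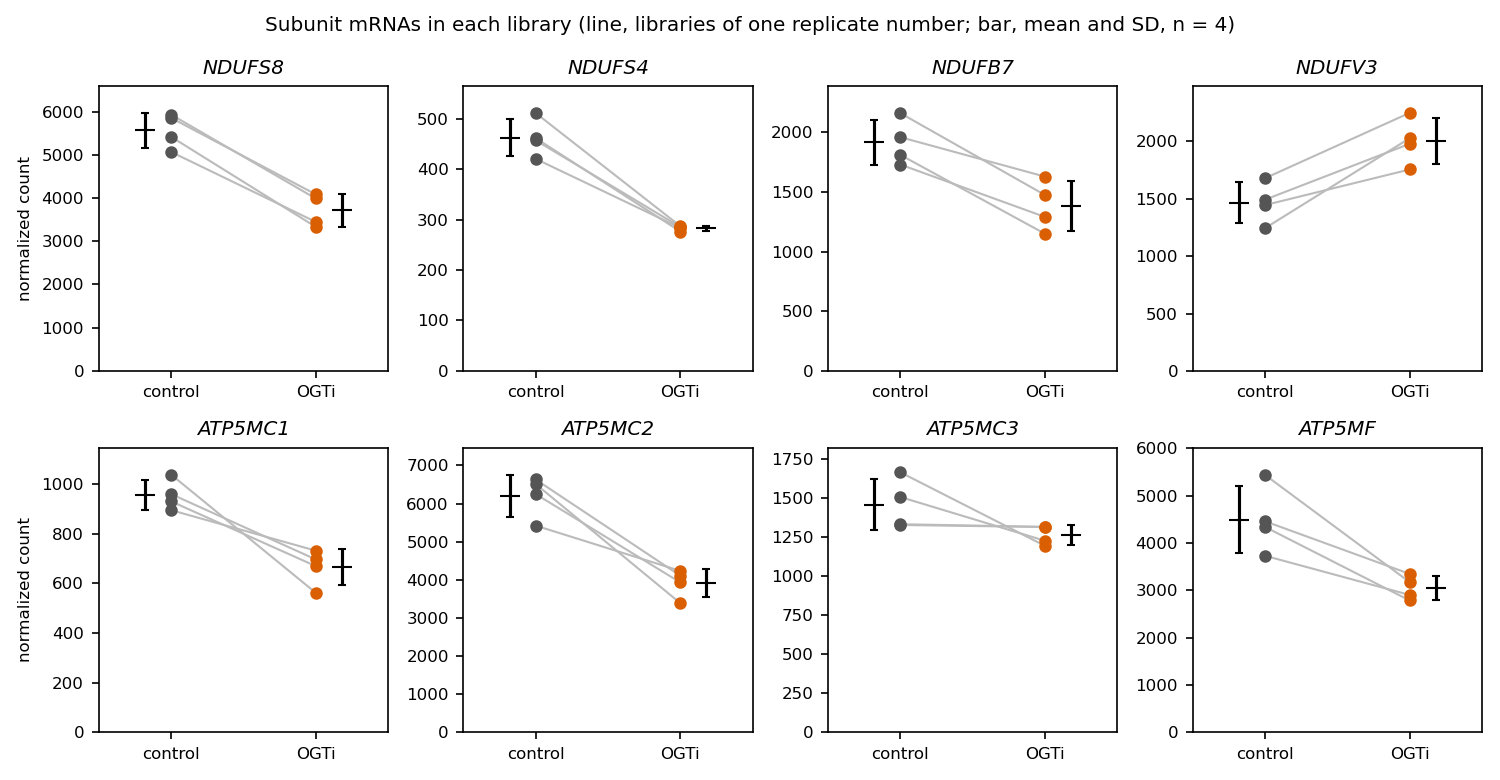
Normalized counts (y axis, from 0) of 8 subunit genes in each of the 4 control and 4 OGTi libraries, with lines joining libraries of the same replicate number and bars giving mean and SD. All lines fall for NDUFS8, NDUFS4, NDUFB7 and the c-ring genes ATP5MC1, ATP5MC2 and ATP5MC3 as well as ATP5MF, and all rise for NDUFV3.

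The promoters of the complex I genes with the largest falls and rises and of ATP5MC1 are shown because these were the mRNAs with the largest calls in both directions that have a single RefSeq window. The stretches are from RefSeq (GRCh38.p14), run 5′ to 3′ on the gene's strand from 150 bases before the annotated start, and end at the start or before the first base that GENCODE holds in an exon of the gene. Capitals mark the letters of 4 motifs known for housekeeping and mitochondrial genes, searched on both strands: NRF1 (CGCATGCG), ETS (CCGGAAG), YY1 (AAGATGGC) and SP1 (GGGCGG). The 2 genes that rose, NDUFV3 (chr21:42893159-42893267, plus strand) and NDUFB10 (chr16:1959388-1959537, plus strand), come before NDUFS4 (chr5:53560489-53560632, plus strand), NDUFS8 (chr11:68030531-68030616, plus strand), NDUFB7 (chr19:14572067-14572216, minus strand) and ATP5MC1 (chr17:48892637-48892764, plus strand), which fell. The NDUFV3 stretch lies inside the gene's span as GENCODE draws it, before the first exon of a shorter transcript.
NDUFV3: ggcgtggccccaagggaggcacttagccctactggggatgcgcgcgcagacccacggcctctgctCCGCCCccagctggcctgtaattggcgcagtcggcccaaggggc
NDUFB10: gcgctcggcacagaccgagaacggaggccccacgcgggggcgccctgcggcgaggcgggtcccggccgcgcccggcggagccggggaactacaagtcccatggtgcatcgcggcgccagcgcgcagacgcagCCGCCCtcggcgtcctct
NDUFS4: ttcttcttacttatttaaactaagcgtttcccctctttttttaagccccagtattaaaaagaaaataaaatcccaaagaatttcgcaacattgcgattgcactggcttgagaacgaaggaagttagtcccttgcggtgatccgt
NDUFS8: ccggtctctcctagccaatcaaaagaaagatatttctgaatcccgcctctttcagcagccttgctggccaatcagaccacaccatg
NDUFB7: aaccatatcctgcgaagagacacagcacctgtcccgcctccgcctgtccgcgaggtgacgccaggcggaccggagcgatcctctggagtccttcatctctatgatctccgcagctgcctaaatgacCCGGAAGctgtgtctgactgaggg
ATP5MC1: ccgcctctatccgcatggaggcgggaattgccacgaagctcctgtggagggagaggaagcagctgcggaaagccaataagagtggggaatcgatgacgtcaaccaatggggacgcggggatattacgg

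The NDUFV3 and NDUFB10 stretches each held the SP1 letters, the NDUFB7 stretch held the ETS letters, and the NDUFS4, NDUFS8 and ATP5MC1 stretches held none of the 4 motifs. The printed stretches are parts of the windows searched, and in the full windows NDUFS4 also held the YY1 letters and NDUFB7 the SP1 letters. Over the full windows, from 250 bases before to 50 after the start, RefSeq had entries for 68 of the 84 subunit genes. The YY1 letters stood in 17.6% of these subunit genes, against 5.85% of the 11768 tested genes with an entry. The NRF1 letters stood in 16.2% against 4.1%, the ETS letters in 30.9% against 20.6% and the SP1 letters in 64.7% against 74.5%. Among subunit genes the YY1 letters stood in 23.8% of 21 that fell, 0% of 5 that rose and 16.7% of 42 not called. For those that fell and rose, the shares were 19% and 20% with the NRF1 letters, 28.6% and 20% with the ETS letters and 66.7% and 60% with the SP1 letters. A match of letters is a description of the window and no evidence of binding.

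In complex II, the membrane anchors fell and the catalytic subunits were not called. SDHD had 1418, 1372, 1369 and 1463 normalized counts in control and 1198, 1169, 1215 and 1294 in OGTi (log2 fold change -0.21 ± 0.08, q = 0.0341, DESeq2), with no overlap. SDHC had 871 to 1037 in control and 683 to 914 in OGTi, which overlapped (-0.23 ± 0.10, q = 0.041). SDHA, the flavoprotein that oxidises succinate, had means of 8466 ± 353 and 8327 ± 535 (-0.03 ± 0.07, q = 0.787), and SDHB, the iron-sulfur subunit, had 1327 ± 71.8 and 1382 ± 63.5 (0.06 ± 0.09, q = 0.606). Both anchor calls were lost whichever pair was left out, with q of 0.0818 to 0.228 for SDHC and 0.0891 to 0.157 for SDHD.

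In complex III the core proteins UQCRC1 and UQCRC2, which flank each other on the matrix side, were called in opposite directions. UQCRC2 had 1583, 1513, 1581 and 1581 normalized counts in control and 1789, 1765, 1814 and 1982 in OGTi, without overlap (0.23 ± 0.08, q = 0.0113, DESeq2). UQCRC1 had 6340.3 to 7458 in control and 5411 to 6434 in OGTi, with overlap (-0.16 ± 0.07, q = 0.0428). The UQCRC1 call was lost in edgeR with the pairing (q = 0.0632) and whichever pair was left out (q = 0.0684 to 0.229, DESeq2). The UQCRC2 call was lost without replicates 2 or 4 (q = 0.0672 and 0.128). The electron carriers CYC1 (-0.01 ± 0.09) and UQCRFS1 (-0.05 ± 0.07) and the 5 small subunits were not called. CYCS, the soluble cytochrome c, had 1775 to 2122 in control and 1637 to 1818 in OGTi, lower in 4 of 4 pairs but with overlap (-0.17 ± 0.08, q = 0.0717).

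In complex IV, 10 of the 11 widely expressed subunits were not called. The exception was COX6B1, a subunit that faces the intermembrane space and joins the dimer, with 2638, 2449, 2193 and 2829 normalized counts in control and 2990.1, 2994, 3019 and 2917 in OGTi. Its OGTi libraries stood above the control libraries (0.24 ± 0.08, q = 0.0111, DESeq2), but with trends on GC content and length removed the value fell to 0.06 (q = 0.503), and it was not called without replicate 2 (q = 0.0865) or 3 (q = 0.159). COX4I1, the subunit known to take part in allosteric control by ATP, had means of 1808 ± 166 and 1664 ± 184 (-0.12 ± 0.08, q = 0.233). COX6A1, the subunit mRNA with the highest level per kb in both groups, had 6817 ± 778 and 7469 ± 441 normalized counts (0.14 ± 0.08, q = 0.141).

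The other called genes of complex IV were paralogs. COX7A2L, which resembles COX7A2 and links complexes III and IV in supercomplexes, had 1309, 1235, 1293 and 1358 normalized counts in control and 896, 1068, 1144 and 1136 in OGTi, without overlap (-0.30 ± 0.10, q = 0.00595, DESeq2; q = 0.0856 without replicate 1). Of the summed per-kb level of COX7A1, COX7A2 and COX7A2L, COX7A2L took 15.9% to 19.7% in control and 12.1% to 15.3% in OGTi libraries. NDUFA4L2, a hypoxia-linked paralog of NDUFA4, had 104, 133, 93.1 and 110.2 in control and 138, 184, 209 and 127 in OGTi, with overlap (0.56 ± 0.22, q = 0.0268). Its call was lost without replicates 1, 2 or 3 (q = 0.0578, 0.09 and 0.276), and NDUFA4 itself was not called (0.14 ± 0.09, q = 0.225). Of the tissue-restricted forms, COX6B2 had 12.6 to 47.7 normalized counts in control and 12.5 to 19.1 in OGTi and was not called (-0.57 ± 0.53, q = 0.401), and COX7A1, at a mean of 1.48 in control, was too low for a change to be detectable at this depth.

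In complex V the largest falls lay in the membrane part. The c-ring is encoded by 3 genes whose mature proteins are the same. ATP5MC2, the most abundant of these (chr12:53632726-53677408), had 6514, 6249.9, 5423 and 6633 normalized counts in control and 3389, 3932, 4235 and 4109 in OGTi (log2 fold change -0.66 ± 0.09, q = 1.22e-12, DESeq2). ATP5MC1 (chr17:48892765-48895871) had 1038, 894, 929.7 and 959 in control and 562, 731, 669 and 696 in OGTi (-0.53 ± 0.12, q = 2.23e-05). ATP5MC3 had 1663, 1331, 1326 and 1505 in control and 1193, 1314, 1313 and 1225 in OGTi (-0.20 ± 0.10), and missed the threshold (q = 0.0868). For each of the c-ring genes the OGTi libraries lay below all control libraries. The share of ATP5MC3 in their summed per-kb level was 4.37% to 5.12% in control and 5.88% to 6.89% in OGTi libraries, and that of ATP5MC2 fell from a mean of 82.8% to 80.3%.

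Among the 5 small membrane subunits 3 fell. ATP5MF, subunit f, had 5438, 4458, 3730.2 and 4339 normalized counts in control and 3173, 3347, 2902 and 2786 in OGTi, without overlap (-0.55 ± 0.08, q = 8.95e-10, DESeq2). Its counts were fractional in 7 libraries and are uncertain to the extent that RSEM split reads with the read-through transcript ATP5MF-PTCD1, which ranged from 0 to 204 normalized counts in control. ATP5MG, subunit g, fell by 0.28 on the log2 scale (q = 0.000833) and ATP5MD, which is needed for dimers of the enzyme, by 0.43 (q = 0.0103). The ATP5MD call was lost without replicates 1 or 4 (q = 0.114 and 0.0917).

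In the peripheral stalk, which holds the head still, ATP5PB (-0.36 ± 0.07, q = 4.71e-06) and ATP5PO (-0.27 ± 0.10, q = 0.0235) fell. ATP5PO stood at 2077 normalized counts in control replicate 1 and at 1401 to 1530 in the other controls, and its call was not kept in every setting tried. ATP5PF had q = 0.0517 (-0.20 ± 0.09), and ATP5PD was not called (-0.03 ± 0.10, q = 0.854). In the F1 part the α and β subunits, which alternate in the head, differed in their values. ATP5F1A, the α subunit, had 4661, 4062, 4270.3 and 4249 normalized counts in control and 3622, 3462, 3333 and 3559 in OGTi (-0.30 ± 0.07, q = 7.56e-05, DESeq2). ATP5F1B, the catalytic β subunit with the highest count of all members, had 14653, 14229, 15015 and 15142 in control and 13966, 15958, 16068 and 15500.4 in OGTi (0.06 ± 0.07, q = 0.514). In the central stalk ATP5F1D, the δ subunit, fell (-0.26 ± 0.08, q = 0.00592), while ATP5F1C (-0.18 ± 0.09, q = 0.0945) and ATP5F1E (0.03 ± 0.09) were not called. The ATP5F1D call was not kept in every setting tried. ATP5IF1, the inhibitor that binds the head when the membrane potential is lost, had means of 2546 ± 78.7 and 2511 ± 142 (-0.02 ± 0.07, q = 0.848).

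Normalized counts per kb of canonical transcript were summed over each complex in every library to compare levels between genes. The complex V sum was 61085, 53973, 50316 and 55577 in control and 44841, 47308, 45619.9 and 43663 in OGTi, without overlap and with a ratio of means of 0.821. ATP5MF and ATP5MC2 made up 69.5% of this fall, and without them the sum was 33314 to 38504 in control and 30873 to 33531 in OGTi, with overlap (ratio 0.915). The complex I sum fell from a mean of 62964 ± 4339 to 56367 ± 3965, with overlap (ratio 0.895), and the complex IV sum was 37703 ± 3349 in control and 39667 ± 2618 in OGTi (ratio 1.05). Within a library, the ratio of the complex V to the complex IV sum was 1.37 to 1.54 in control and 1.09 to 1.18 in OGTi, and that of complex I to complex IV was 1.56 to 1.78 and 1.38 to 1.51. Neither of these ratios overlapped between the groups, and without ATP5MF and ATP5MC2 the complex V to IV ratio was 0.863 to 1.02 and 0.774 to 0.848. The ratios of complexes II and III to complex IV overlapped, at 0.154 to 0.189 against 0.138 to 0.164 and 0.325 to 0.365 against 0.308 to 0.332. The sums depend on the transcript length chosen. As a share of all counts, without size factors or lengths, complex V took 0.177% to 0.215% in control and 0.176% to 0.183% in OGTi, which overlapped, and all 84 genes took 0.601% ± 0.049 and 0.594% ± 0.0193.

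**Figure D3:**
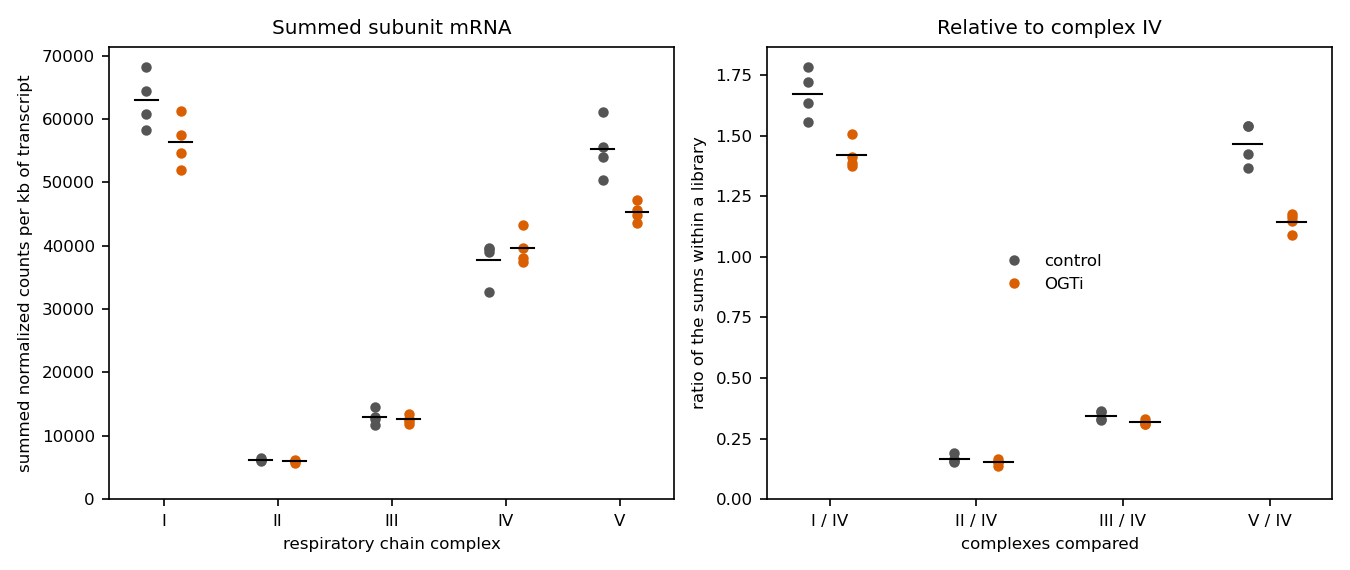
Left, summed normalized counts per kb of transcript for complexes I to V in each control and OGTi library, with lines at the means of 4. Right, the sum of each of complexes I, II, III and V divided by the complex IV sum of the same library, where the V / IV ratio is 1.37 to 1.54 in control and 1.09 to 1.18 in OGTi libraries.

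Assembly factors, which build the complexes without staying in them, had more rises than falls. Of 52 factors of complexes I to V 17 rose and 4 fell (32.7% and 7.69%, against 22.7% and 24% of all genes with an adjusted p), with a median log2 fold change of 0.13. Among the 8 NDUFAF genes, NDUFAF2, NDUFAF3, NDUFAF4 and NDUFAF6 rose and 0 fell. NDUFAF3 had 3506, 2759, 2427 and 2851 normalized counts in control and 4426, 4354, 4468 and 3794.5 in OGTi (0.57 ± 0.09, q = 5.8e-09, DESeq2), and NDUFAF2 had means of 419 ± 11.3 and 620.0 ± 55.4 (0.56 ± 0.12, q = 1.15e-05). The wider complex I list of 16, which includes these 8, had 6 higher and 2 lower, the latter being ECSIT (-0.48) and NUBPL (-0.36). Without replicate 2, where 17.6% of all genes were higher and 19.7% lower, the 52 factors gave 8 higher and 3 lower calls. The complex I list then gave 2 and 1. Without replicate 4 (18.2% and 19.7% of all genes) the complex I list gave 2 and 2.

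SURF1, a complex IV factor whose loss also causes Leigh syndrome, had 333, 322, 308 and 313 normalized counts in control and 549, 690.1, 575 and 536 in OGTi (0.87 ± 0.13, q = 5.61e-11, DESeq2). Of the 22 complex IV factors 6 rose and 0 fell (27.3% and 0%, against 22.7% and 24% of all genes), with a median of 0.02. Without replicate 2 the counts were 2 and 0, where 17.6% of all genes were higher and 19.7% lower. Among the 6 was COX18, which inserts a core subunit in the membrane (0.58 ± 0.16, q = 0.00103). TTC19, a complex III factor, rose from 859 ± 81.9 to 1589 ± 129.8 (0.89 ± 0.10, q = 3.31e-17). ATPAF1, a chaperone of the F1 β subunit, went down from 561 ± 96.5 to 299 ± 35.3 (-0.90 ± 0.13, q = 4.7e-11), whereas TMEM70, which helps the c-ring assemble, rose (0.51 ± 0.15, q = 0.00196). In the list of 4 complex II factors 1 rose, SDHAF4, from a low level of 12.8 to 37.8.

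**Figure D4:**
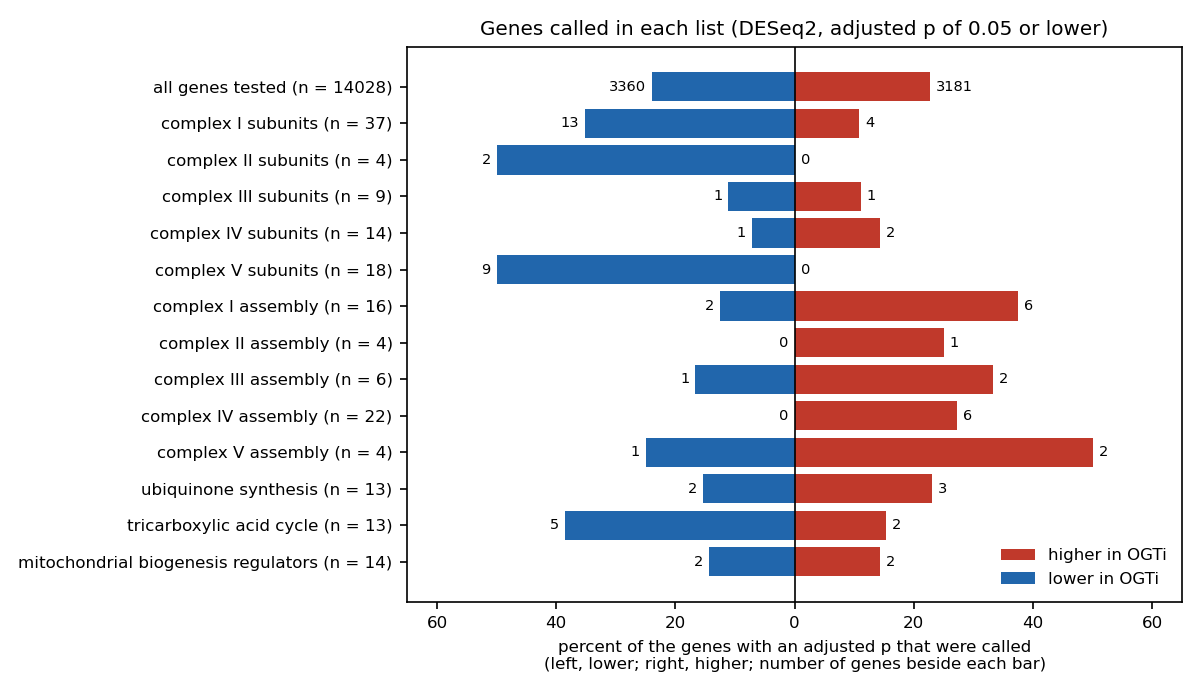
Percent of the genes with an adjusted p in each list that were called lower (left, blue) or higher (right, red) in OGTi, with the number of genes beside each bar. Complexes I and V have 13 and 9 genes lower against 4 and 0 higher, complex I assembly has 2 lower and 6 higher (2 and 2 without replicate 4), and all genes with an adjusted p stand at 24% and 22.7%.

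Genes that feed or regulate the chain were counted in the same fit, in which 24% of all genes with an adjusted p fell and 22.7% rose. Citrate synthase (CS), the entry enzyme of the tricarboxylic acid cycle, had 9471, 9626, 10184 and 11215 normalized counts in control and 5338, 5339, 6093 and 6326 in OGTi (-0.81 ± 0.06, q = 7.71e-35, DESeq2). Of 13 genes of the cycle 5 fell (38.5%) and 2 rose (15.4%). IDH3G, a regulatory subunit of isocitrate dehydrogenase, fell by 0.76 on the log2 scale (q = 2.75e-17). The 2 that rose were IDH3A, another subunit of that enzyme (0.28 ± 0.08, q = 0.00105), and MDH2 (0.23 ± 0.07, q = 0.00331). In ubiquinone synthesis 2 of 13 fell and 3 rose. The genes that rose were COQ10A, a ubiquinone-binding protein, from 349.6 ± 25 to 948 ± 105 (1.43 ± 0.12, q = 1.01e-31), COQ8A, an atypical kinase of the pathway (0.76 ± 0.13, q = 1.65e-08), and COQ9 (0.38 ± 0.10, q = 0.000594). The genes that fell, COQ3 and COQ7, modify the quinone ring and went from 153 ± 26.7 to 55.5 ± 7.81 (q = 6e-09) and from 291 ± 25.3 to 107 ± 20.3 (q = 2.84e-15), each with a log2 fold change of -1.46. Of 14 regulators of mitochondrial biogenesis 2 rose and 2 fell: TFB1M, which methylates mitochondrial ribosomal RNA (0.88 ± 0.15, q = 9.39e-08), and the nuclear receptor ESRRA (0.40 ± 0.12, q = 0.00166), against PPRC1 (-0.19) and YY1 (-0.22). Of 4 genes linked to supercomplexes and hypoxia 2 fell and 2 rose. HIGD2A and HIGD1A, small proteins that bind complex IV and supercomplexes, fell by 1.07 (q = 3.57e-13) and 0.51 (q = 1.82e-07) on the log2 scale. HIF1A (0.41 ± 0.09, q = 1.16e-05) and EPAS1 (0.32 ± 0.07, q = 1.02e-05) rose.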

How the data were processed

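RNA-seq was performed on LX-2 cells with 4 control and 4 OGTi libraries, grouped by the treatment named in the labels. Per the labels and the study's methods, reads from stranded, polyadenylated RNA libraries were aligned to hg38 with Bowtie2 2.3.5.1 and counted per gene with RSEM 1.3.1. The deposited expected counts share reads with several alignments between genes and are not scaled for depth. A deposited table of the authors' own DESeq2 1.36.0 comparison (log2 fold changes and p-values) was not used. Counts were rounded, genes with totals under 10 were removed, and the other 14895 went into DESeq2 1.42.0 under R 4.3.3 (Wald test, median-of-ratios factors, replicate number as a block as in the study, independent filtering, unshrunken fold changes, threshold 0.05). The fit was tested on simulated data. Libraries of the same number deviated together (Pearson r across 10994 genes, which are not independent replicates, 0.372, 0.391, 0.165 and 0.327). However, control replicate 3 was closer to OGTi replicate 4 (0.343), and OGTi replicate 3 was closer to control replicate 4 (0.255), than to each other. The labels name no other batch, and no libraries were the same within sampling noise.

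Positions, GC content and canonical transcript lengths came from GENCODE 44 (GRCh38), matched by symbol for 16245 of 16796 genes. NDUFA4 and NDUFA4L2 were placed in complex IV and ATP5IF1 in complex V. The members and gene lists were chosen with earlier results of these data known. Genes named with full values were SDHA to SDHD, CYC1, CYCS, the 3 largest called rises and falls in each of complexes I, III, IV and V with a mean of at least 100, the paralogs of such groups, and the 2 largest called changes per list of other genes. Other genes named to account for a group were chosen after their values were seen. Not every member counted is reported here. Alternatives were edgeR 4.0.16 with and without the block, DESeq2 without the block, TMM factors, no count filter or a minimum total of 100, GC and length trends removed (mgcv 1.9.3), and each pair left out; the complex V sum without ATP5MF and ATP5MC2 was added after seeing the data. Counting error is covered by the model, and members with few counts are measured with the least precision.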

Additional observations from a re-analysis of the deposited data

Results flagged for a closer look

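In 6 of 104 groups of 4 libraries, 1 library stood apart from the other three by more than the 95% critical value of Dixon's test for the gap over the range, where chance gives about 5.2. In control replicate 2, UQCRC2 stood at 1513 normalized counts and the other libraries lay at 1581 to 1583. UQCRH, a small subunit of complex III, had 1256 in OGTi replicate 2, against 999 to 1026. NDUFAF3 had 3794.5 in OGTi replicate 4, against 4354 to 4468. HIGD2A had 380.2 in OGTi replicate 1, against 510.3 to 532, and HIGD1A had 1292 in OGTi replicate 4, against 1060.4 to 1082. The complex IV sum per kb was 32697 in control replicate 3, against 39007 to 39677.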

How the results depend on the processing

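Over the alternatives, 16 subunit genes were called in the same direction in each: NDUFV3 rose, and the others, among them NDUFA12, NDUFB7, NDUFS4, NDUFS8, ATP5F1A, ATP5MC1, ATP5MC2, ATP5MF and ATP5PB, fell. Of 46 named genes 34 had no changed call and 0 reversed. Without the replicate block DESeq2 called 7 subunit genes higher and 22 lower, where 21.2% and 22% of all genes were called in these directions. Of these subunit genes 28 were among the 33 called with the block, and SDHC (q = 0.0976) and UQCRC1 (q = 0.128) were the named genes that lost their call. With each pair left out in turn, called genes were 2 to 9 higher and 15 to 25 lower over all subunits. In these settings 17.6% to 19.4% of all genes were higher and 19.7% to 21.1% lower. Complex I had 2 to 6 higher and 9 to 13 lower, and complex II had 0 lower. Complex III had 0 to 1 higher and 0 to 1 lower, complex IV had 0 to 2 higher and 0 to 1 lower, and complex V had 6 to 10 lower. Without the block complex II had 1 gene lower in DESeq2 and in edgeR, and complex III had 0 lower in both and in edgeR with the block, where UQCRC1 had q = 0.0632. With GC and length trends removed, 7 subunit genes were higher and 35 lower, 14 of these in complex V. In this setting 23.9% of all genes were higher and 23.4% lower. Complex IV then had 1 higher and 2 lower with COX8A called (q = 0.000119), and the complex II median was -0.16. Subunit transcripts were short, with a median of 783.5 bases against 3311 for all genes tested, and the part of length in the results was not tested further. The ratio of the complex V sums, 0.821, was 0.915 without ATP5MF and ATP5MC2, a setting added after seeing the data. The 52 assembly factors gave 8 to 20 higher and 2 to 5 lower calls over the settings, where 17.6% to 25% of all genes were higher and 19.7% to 26.2% lower. The per-kb shares of ATP5MC3 and COX7A2L kept their direction on raw counts (16.9% to 21.7% and 51.7% to 43.3%).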

Other observations

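Per kb of canonical transcript, the 5 subunit mRNAs of the highest control level were COX6A1 (12694 normalized counts per kb), ATP5MF (10139), ATP5MC2 (9818), ATP5F1B (8391) and NDUFS8 (7557). In OGTi they stood at 13910, 6889, 6197, 8740 and 5040 in this order, so that ATP5F1B moved from the fourth to the second place. Canonical transcripts of some members are long, such as ATP5MC3 with 2587 bases and NDUFV3 with 5725, so that the order depends on the transcript chosen.

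NDUFC2, its read-through transcript NDUFC2-KCTD14 and NDUFV2 had fractional counts in all 8 libraries, which shows that RSEM divided their reads with other genes but not with which. A fractional count in any library was found for 16 members, among them NDUFB7 and CYCS with 5 libraries each. NDUFC2 had means of 2653 ± 194 and 2854 ± 80.4 (SD, n = 4) and the read-through 445 ± 93.5 and 431 ± 85.6 in control and OGTi, and neither was called.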
